A study of Camponotus fellah with 299 samples.

Results

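Old ants at both ends of the social range of their colony were compared: overage nurses, which at an age of 18 months or more still held the position of nurses, and mature ants of the same age span. The series holds RNA-seq of single brains of 299 ants of the carpenter ant Camponotus fellah from colonies 2, 3 and 4, whose behaviour was recorded for a week before they were killed. The labels give 289 of these ants an age, a maturity value from 0 to 1 and tallies of what each ant was seen to do. Oriented maturity is the deposited value in colonies 2 and 3 and 1 minus it in colony 4. Of the labelled ants aged 18 months or more, 17 had an oriented maturity below 0.35 and are called overage nurses here, 70 had one above 0.75 and are called old mature ants, and 18 lay between and are called old middle ants. The comparison of both ends thus held 87 of the 299 ants.

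All overage nurses came from colonies 3 and 4, with 8 and 9 ants. The old mature ants were 26 of colony 2, 23 of colony 3 and 21 of colony 4. Colony 2 therefore adds only to the estimates of spread and of the age slope. The labels list no genotype, strain or treatment for any group, and all libraries are of brain. The labels do not define maturity, which is read here as social network position from the title of the series. They do not define the nurse-forage ratio either, which is read as rising with foraging.

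In many ants, workers divide labour by age: young workers stay in the nest and tend the brood and the queen, and older workers leave it to guard and forage. This age polyethism is a tendency and not a fixed schedule, so some workers keep nursing late in life and others forage early. Old nurses are of interest because in most workers age and task change together, and an old nurse parts the task from the age.

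Few ants lay near the lower bound of maturity, and more lay near the upper one. With a lower bound of 0.25 the overage nurses were 15, and with an upper bound of 0.65 the mature ants were 78. The overage nurses with the highest oriented maturity stood at 0.304 (colony 4, aged 19 months) and 0.323 (colony 3, aged 18 months), and the nearest old middle ants at 0.352 and 0.411. At the other bound the nearest old middle ants stood at 0.738 and 0.749, and the lowest old mature ants at 0.761 and 0.767. The median oriented maturity was 0.0924 in the overage nurses and 0.95 in the old mature ants.

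**Figure D1:**
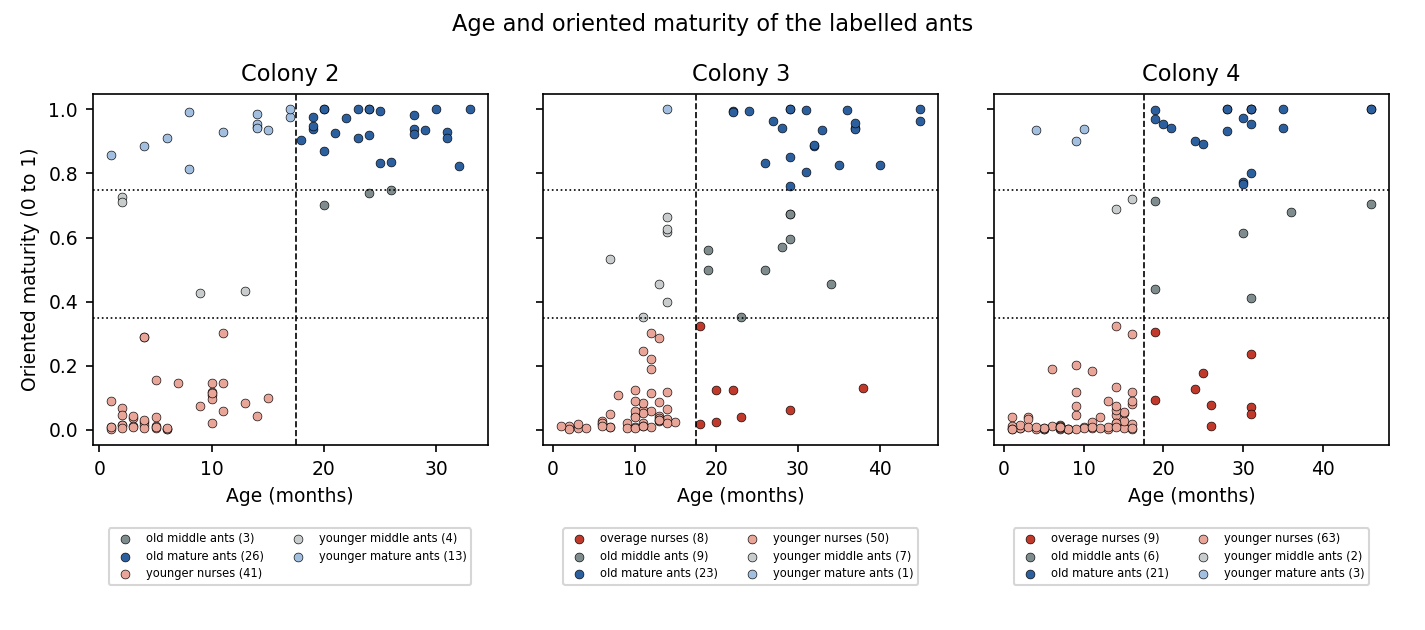
Age in months (x axis) and oriented maturity (y axis, 0 to 1) of the labelled ants, 1 panel per colony and 1 point per ant; the dashed line marks the age bound of 18 months and the dotted lines the maturity bounds of 0.35 and 0.75. The 17 overage nurses lie at the lower right of colonies 3 and 4, and colony 2 has none there.

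The overage nurses tended brood and attended the queen more often than the old mature ants. Brood care is the feeding and handling of larvae and pupae. Its tally ran from 0 to 32 with a median of 2 in the overage nurses, and from 0 to 2 with a median of 0 in the old mature ants. In colony 3 all 8 nurses had tended brood, with a median of 2.5 against 0, and 18 of 23 mature ants had not. In colony 4 the median was 1 against 0, and 3 of the 9 nurses had a tally of 0, so the groups overlapped there. The mean was 5.24 ± 9.47 (SD, n = 17) in nurses and 0.129 ± 0.378 (SD, n = 70) in mature ants, a difference within colonies of 5.15, with an adjusted p of 4.33e-05. The 2 highest tallies, 32 and 28, belonged to nurses of colony 3 aged 23 and 20 months.

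Queen attending differed between the groups in the same way, again with overlap. A tally of 0 was recorded for 1 nurse of colony 3 and 3 of colony 4. The tally ran from 0 to 19 with a median of 5.5 in the nurses of colony 3 and from 0 to 4 with a median of 2 in those of colony 4. No old mature ant of any colony exceeded 1, and 65 of 70 had a tally of 0. The difference within colonies was 3.57 (adjusted p = 4.33e-05). Of the 17 nurses, 11 had been seen at both tasks, but the highest tallies belonged to different ants: the ant with 19 attending acts had a brood care tally of 2, and those with the 2 highest brood care tallies had 1 attending act each. An ant of colony 4 aged 19 months, with a nest cleaning tally of 33, had been seen at neither task. It counts as an overage nurse by its oriented maturity alone.

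Work inside the nest other than nursing was less distinct. Nest cleaning was higher in the overage nurses, with a median of 2 and a range from 0 to 33 against a median of 0 and a range from 0 to 30 in the mature ants. The difference within colonies was 3.71 (adjusted p = 0.0145), and without the single nurse of colony 4 at 33, left out after seeing the data, it was 2.01 (adjusted p = 0.0479). The mature ants of colony 2, where there is no overage nurse to compare, had a median of 2.5. Food sharing in the nest (trophallaxis) had a median tally of 4 in nurses and 3 in mature ants, and its adjusted p of 0.604 missed the threshold. Nest grooming, with medians of 1 and 0, had an adjusted p of 0.0598. Guarding had a median of 0 in the nurses, none of whom guarded in colony 3, and of 1 in the mature ants, with an adjusted p of 0.32. The medians stood the other way in colony 4, at 1 in nurses and 0 in mature ants, with means of 2.11 and 2.29. Mature ants of colony 2 had a median guarding tally of 2.5.

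The overage nurses had no recorded acts on the foraging side. All 17 had tallies of 0 for food sharing, cleaning and grooming there, and the ratio was 0 in 15 of 17, with a highest value of 0.00468. The ratio of the old mature ants ran from 0 to 0.999 with a median of 0.681, and the difference within colonies was -0.688 (adjusted p = 4.33e-05). Food sharing on the foraging side reached 14 in the mature ants, where 32 of 70 had a tally of 0, and the difference within colonies, nurses minus mature ants, was -2.47 acts (adjusted p = 0.00315). For cleaning on the foraging side it was -0.745 (adjusted p = 0.0479), and grooming there, at 0 in 59 of 70 mature ants, had an adjusted p of 0.209.

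The old mature ants were not all foragers. A ratio of 0 was recorded for 7 of 26 in colony 2, 4 of 23 in colony 3 and 0 of 21 in colony 4, and the medians were 0.0599, 0.704 and 0.915. The mature end thus held both foraging and non-foraging ants, in shares that varied over the 3 colonies.

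Age passed the test between roles and body size did not. Body length had a median of 9.67 in nurses and 9.12 in mature ants (adjusted p = 0.336), and head width 1.63 and 1.5 (adjusted p = 0.971); the labels give no unit for either. The nurses were younger, at 24.7 ± 5.74 months (SD, range 18 to 38) against 28.5 ± 6.74 months (SD, range 18 to 46), with a difference within colonies of -6.03 months (adjusted p = 0.00559). The ranges overlapped, but the gap was wider in colony 3, at -8.5 months, than in colony 4, at -3.7 months, and age is a covariate in the tests of single gene models below unless stated. These p-values come from two-sided permutation tests that moved ants within colonies, adjusted over the 13 labels tested, and 1e-05 is the smallest unadjusted p that they can give. They rest on the spread between single ants.

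**Figure D2:**
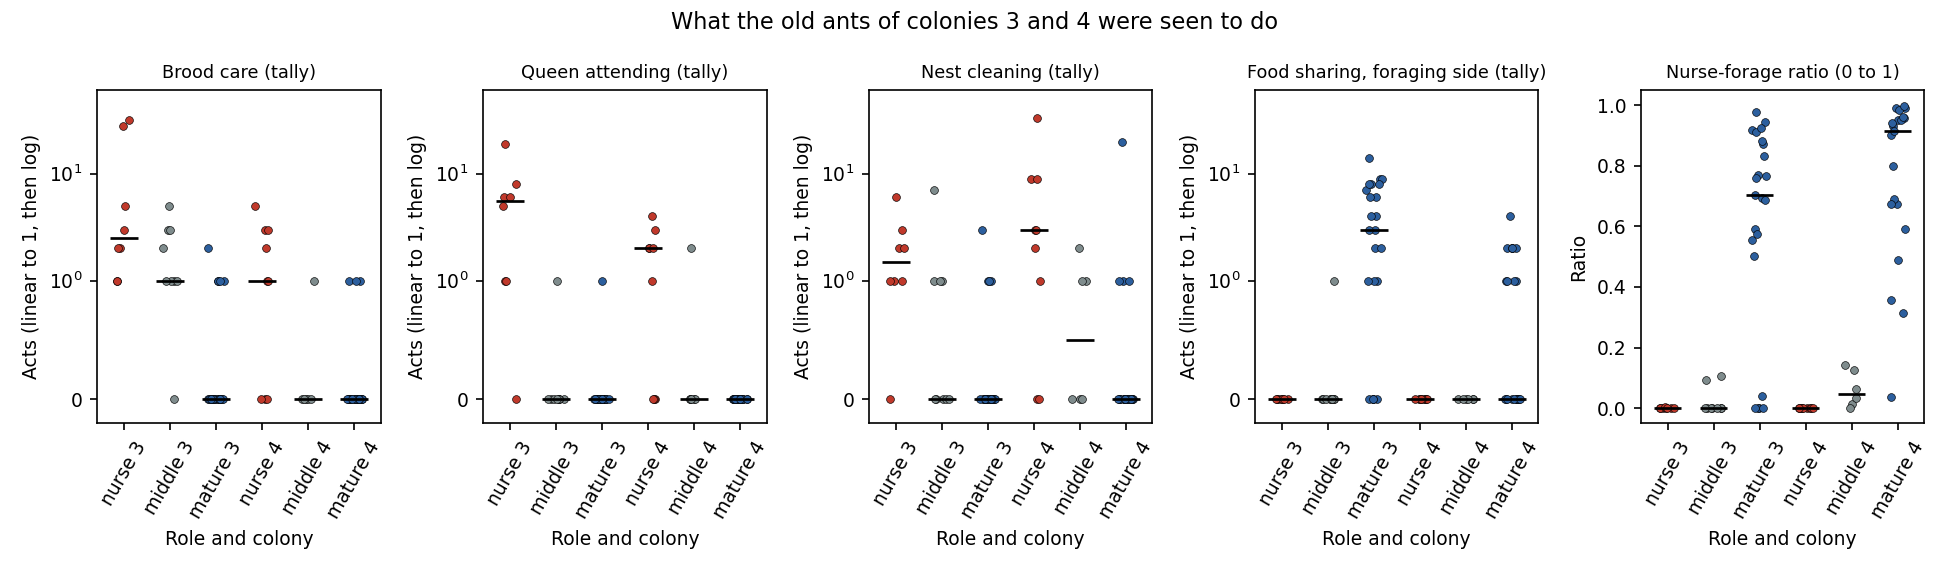
Tallies of 4 behaviours (linear from 0 to 1, then logarithmic) and the nurse-forage ratio (0 to 1) of the old ants of colonies 3 and 4; each point is an ant and bars mark medians of overage nurses, old middle ants and old mature ants. Nurses stand above mature ants in brood care and queen attending and at or near 0 on the foraging side, while a few mature ants of colony 3 also have a ratio of 0.

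Brain expression of old ants differed by role, upward and downward and for the most part modestly. Of 10547 gene models tested with colony and age as covariates, 468 were called at an adjusted p below 0.05 by edgeR's quasi-likelihood test (4.44% of those tested), of which 240 were higher and 228 lower in the overage nurses. The median absolute difference was 0.333 log2 among the models that were higher and 0.241 among those that were lower, against 0.0616 over all tested models, and 209 of the 468 differed by under 0.25 log2. The libraries of the 87 ants held between 21.2 and 71.9 M counted reads (1 M is 1e+06 reads) and 38.4 M at the median. They were 36.3 ± 7.87 M (SD) in nurses and 39.9 ± 9.19 M (SD) in mature ants. With log2 library size as a further covariate 968 models were called, 414 of them among the 468, and the part of depth in the result was not tested further. In whole brains, fewer cells of a type and less RNA per cell cannot be told apart.

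The identifiers are numbered positions on contigs, which the files do not pair with names of genes, so no pathway or cell type list was tested and the brain label could not be checked against markers. The calls fell on 150 of the 406 contigs with a tested model. Of 438 called models with a tested neighbour by number, 41 (9.36%) had one called in the same direction and 20 one in the other. Among models higher in nurses 12.6% had a neighbour called higher, against 3.76% of all tested models, and among those lower 6.05% had one called lower, against 3.87%. These shares are a description, without a test.

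Large differences among the called models were almost all on one side. How all tested models past 1 log2 divided by direction was not counted. Among called models that differed by more than 1 log2, 54 were higher and 7 lower in the overage nurses. Of the former, 53 could be followed in all groups, and their median level was 1.02 CPM (counts per M counted reads) in overage nurses and 0.245 CPM in old mature ants. In the younger nurses, under 18 months, it was 0.961 CPM, and in the younger mature ants 0.356 CPM. The role difference in younger ants had the same sign for 47 of the 53, but 10 (18.9%) were called with it. Its median was 0.753 log2 there and 2.09 log2 in old ants. For 26 of the 53, and for 5 of the 7 lower models, the median of the overage nurses was under 1 CPM. For 52 of the 53 higher models the group medians differed the same way in colonies 3 and 4. The calls came from a fit of the same ants, so this count is a description and no separate support. In 1 of the 53 a single nurse held over 50% of the summed CPM of the nurses. Models of average log2 CPM under 0 were called in 36 of 1094 cases (3.29%), 31 of them higher, and models of 5 or more in 259 of 5592 (4.63%), of which 147 were lower. The abundant models were called at a median absolute difference of 0.189 log2, and 31 of those past 1 log2 in either direction had an average log2 CPM under 0.

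**Figure D3:**
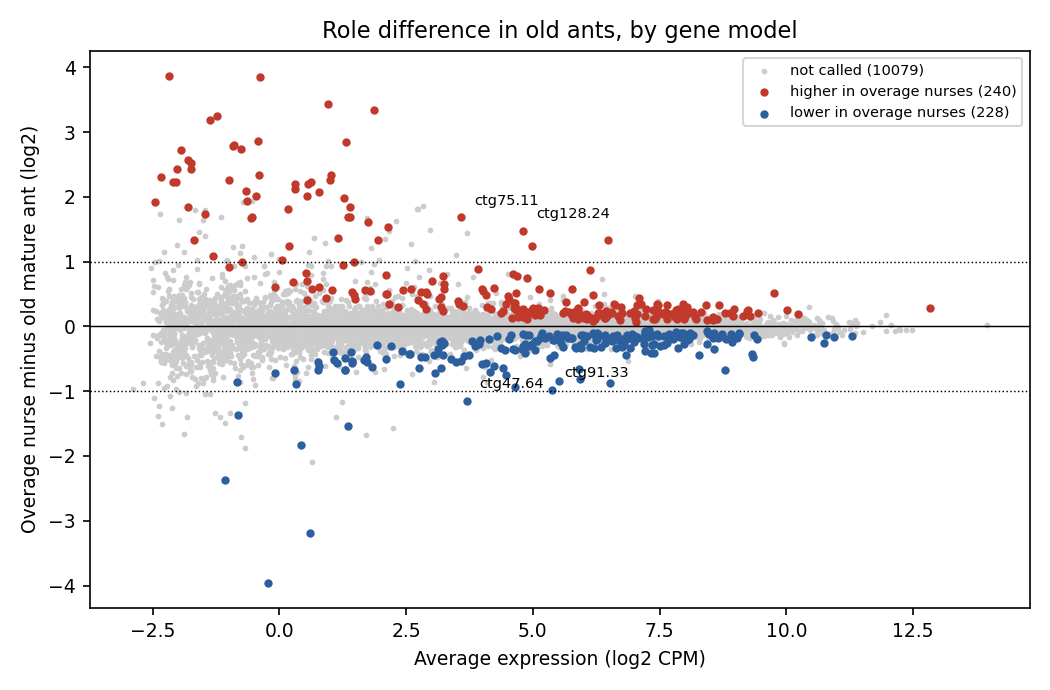
Each point is a gene model, with its average log2 CPM (x axis) and its log2 difference, overage nurse minus old mature ant (y axis); red and blue points passed the adjusted p of 0.05 and dotted lines mark 1 log2. Called points above the upper line (54) far outnumber those below the lower one (7), and the abundant models at the right lie close to 0.

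The named model with the largest rise, evm.model.ctg75.11, varied widely between ants. In overage nurses it ran from 4.41 to 50.2 CPM with a median of 9.24 in colony 3, and from 7.33 to 78.4 CPM with a median of 11.6 in colony 4. In old mature ants it ran from 0.667 to 7.74 CPM with a median of 3.46 in colony 3, and from 1.24 to 46.8 CPM with a median of 4.33 in colony 4. Every nurse exceeded the mature median of its colony, and 6 of 8 in colony 3 but 1 of 9 in colony 4 exceeded all mature ants there, a count set by the mature ant at 46.8 CPM. In colony 2 the mature ants ran from 1.6 to 243 CPM with a median of 4.37. The fitted difference was 1.68 ± 0.457 log2 (SE; edgeR adjusted p = 0.0176), and it was the weakest of the 4 named models: its adjusted p was below 0.05 in 15 of 21 alternatives. It was 0.0772 with body length as a covariate, 0.14 in ants of 20 months or more and 0.209 when all labelled ants shared a fit.

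The other named model that rose, evm.model.ctg128.24, was steadier. It ran from 39.8 to 75.4 CPM (median 46) in the nurses of colony 3 and from 18.6 to 92.8 CPM (median 46.6) in those of colony 4. In mature ants it ran from 3.26 to 42 CPM (median 19.1) in colony 3 and from 8.24 to 40.3 CPM (median 15.3) in colony 4. Within these 2 colonies the groups overlapped little, since 6 of 8 and 7 of 9 nurses exceeded every mature ant of their colony. No mature ant of colonies 3 and 4 reached the median of the nurses of its colony. The mature ants of colony 2, which has no overage nurse, ran from 14 to 59.5 CPM (median 27), into the range of the nurses. The fitted difference was 1.48 ± 0.19 log2 (SE; edgeR adjusted p = 5.69e-08), or 2.78-fold. The model numbered next to it on its contig was also called, at 1.34 log2 (adjusted p = 0.00468). Overlapping models or near-identical copies could share reads, and the strand setting of the counting was not given in the sources used here.

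The model with the smallest p of all, evm.model.ctg47.64, was lower in the overage nurses. It ran from 4.85 to 11.2 CPM (median 7.77) in the nurses of colony 3 and from 2.96 to 8.28 CPM (median 5.79) in those of colony 4. In mature ants it ran from 8.08 to 25.8 CPM (median 15.7) and from 10.4 to 19.7 CPM (median 15.2). The mature ants of colony 2 ran from 6.94 to 18.8 CPM (median 11.9), so some lay in the range of the nurses. In colony 4 all 9 nurses lay below all 21 mature ants, and in colony 3 6 of 8 did. It fell by 1.15 ± 0.127 log2 (SE; edgeR adjusted p = 4.53e-10), or 2.21-fold.

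The second named model that fell, evm.model.ctg91.33, had the narrowest range among nurses relative to its level. It ran from 20.6 to 31.1 CPM (median 23.2) in colony 3 and from 18.1 to 31.3 CPM (median 23.2) in colony 4, so the ranges of both colonies nearly coincided. In mature ants it ran from 26.2 to 123.1 CPM (median 41.6) and from 31.2 to 72.8 CPM (median 47.5). The mature ants of colony 2 ran from 21.3 to 49.3 CPM (median 38.4), so some lay in the range of the nurses. Below all mature ants of their colony lay 6 of 8 and 8 of 9 nurses. It fell by 0.98 ± 0.124 log2 (SE; edgeR adjusted p = 5.32e-08), or 1.97-fold.

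**Figure D4:**
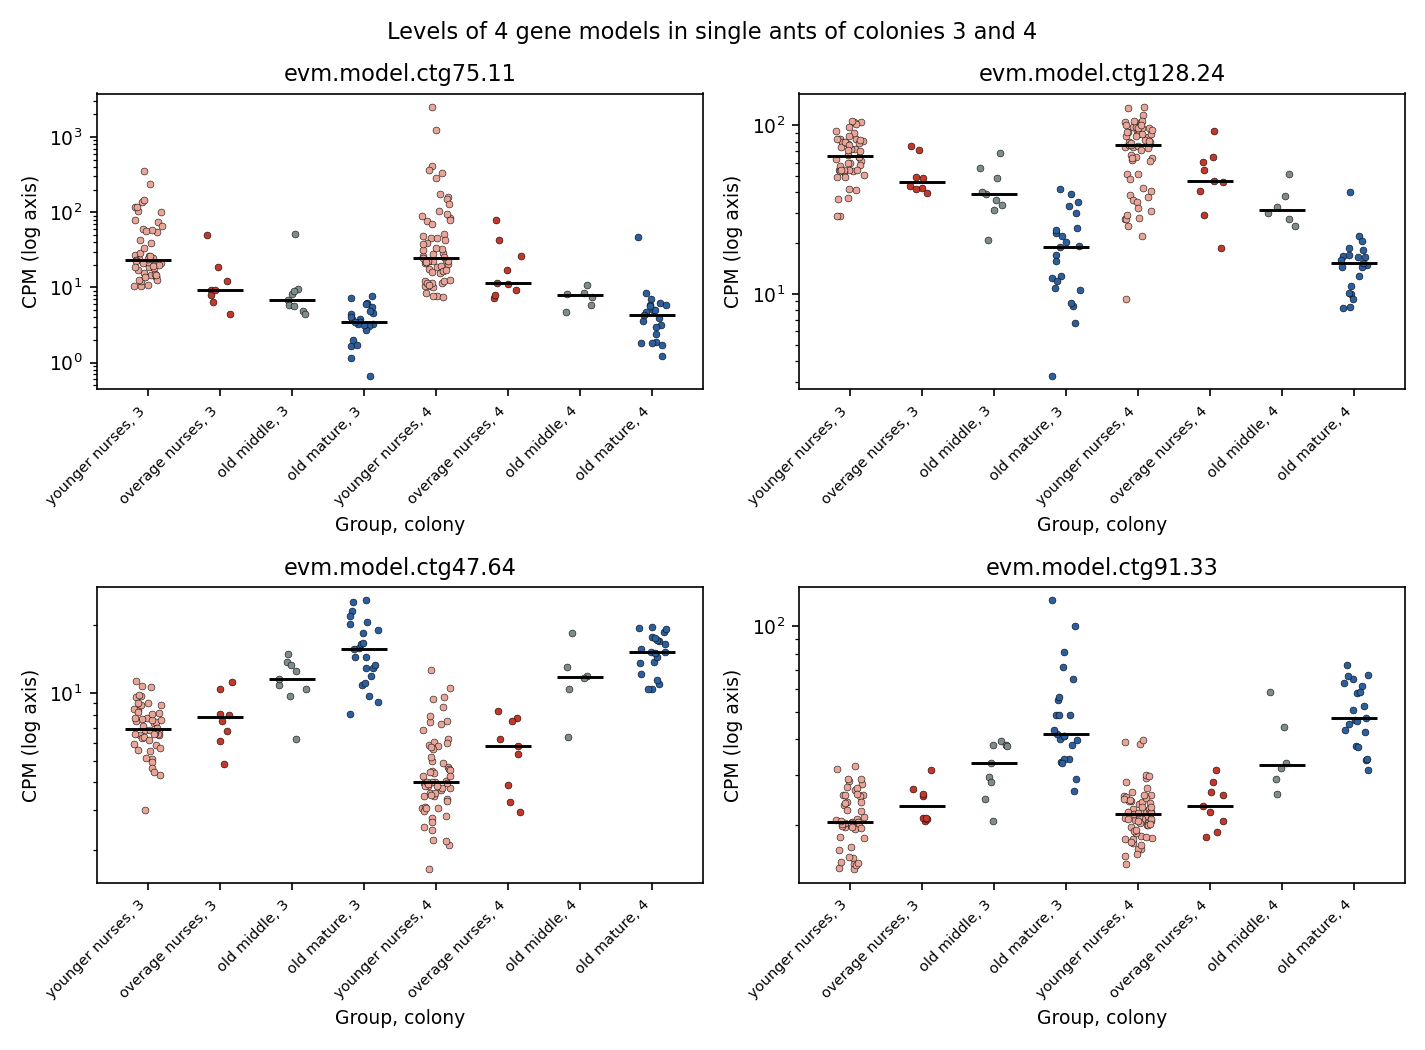
CPM (log axis) of the 4 named gene models in single ants of colonies 3 and 4, with bars at the medians, in younger nurses, overage nurses, old middle ants and old mature ants. Overage nurses lie on the side of the younger nurses in each panel, and the old middle ants lie between overage nurses and old mature ants by their medians.

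The call of these models did not come with a call for age. With role in the model, age slopes of the 4 ran from -0.45 to 0.20 log2 per 12 months, and their adjusted p from 0.148 to 0.62. Over all models, age given role called 562 of the same 10547 (5.33%), 311 rising and 251 falling with age. Role and age shared 40 calls, while 428 were called for role and not for age and 522 for age and not for role. Of the 40, 33 were higher in nurses and fell with age or were lower and rose with age, and 7 had the other pairing. Without the age term 992 models were called for role, and 444 of the 468 were among them. The overage nurses were younger than the mature ants, so part of that larger count cannot be told apart from age.

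Taken alone, the colonies differed in how many models passed. In colony 3, 0 of 10359 models were called (0%), with 611 at an unadjusted p under 0.05, and limma-voom called 2. In colony 4, 257 of 10340 were called (2.49%), of which 145 were higher in nurses. The test of the difference between the colonies called 0 of 10401 models by edgeR (0%), with 397 at an unadjusted p under 0.05, and 0 by limma-voom, so a difference in effect between colonies was not shown for any model. Of the 257 models called in colony 4, 240 (93.4%) had the same sign in colony 3, where no ant is shared, against 54.8% of all models. Their median difference in the direction of the call was 0.389 log2 in colony 4 and 0.172 in colony 3. The 4 named models had fitted differences of 1.62, 1.07, -0.93 and -0.85 log2 in colony 3 and of 1.72, 1.70, -1.38 and -1.04 in colony 4, in the order in which they are given above. They were picked for medians that differed the same way in both colonies, so their agreement in sign is no separate support. Colony 3 also had the wider age gap between roles.

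The same contrast in younger ants shared many calls with that in old ants. Among ants under 18 months, 154 nurses and 17 mature ants were compared, and 1065 of 10769 models were called (9.89%), 579 higher and 486 lower in nurses. Of the 468 models called in old ants, 426 (91%) had the same sign in younger ants, against 64.5% of all models. Both comparisons called 217 models, which are 46.4% of the old list and 20.4% of the younger list, and all 217 had the same sign. Of the models higher in overage nurses, 53.6% were called with the same sign in younger ants, and of those lower 39%. In younger ants the 4 named models differed by 2.91, 1.40, -1.04 and -0.68 log2, each called.

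The test of the difference between age classes, in 1 fit of all 4 groups, called 200 of 10915 models (1.83%). For 155 of the 195 of these that had a value in both comparisons, the role difference had opposite signs in old and younger ants, and none of those 155 was called in both. With a separate age slope for each age class, 4 models were called in place of 200. None of the 4 named models was called for the difference, with adjusted p from 0.0896 to 0.996. Most younger mature ants, 13 of 17, were of colony 2, which has no overage nurse, so age class and colony cannot be told apart in this test.

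A score of maturity trained without any old ant separated the overage nurses from the old mature ants. The filter on low counts and the normalization took in all labelled ants. The training held only 1 younger mature ant of colony 3 and 3 of colony 4. A ridge regression of oriented maturity on the log2 CPM of 10457 models was trained on the 184 labelled ants under 18 months, where it predicted held-out ants with an R-squared of 0.607. In colony 3 the score ran from 0.103 to 0.283 (median 0.21) in the overage nurses and from 0.4 to 1.07 (median 0.638) in the old mature ants. In colony 4 it ran from 0.126 to 0.395 (median 0.257) and from 0.408 to 0.74 (median 0.633). All 8 and all 9 nurses thus lay below every mature ant of their colony. The difference within colonies was -0.391 (permutation p = 1e-05, the smallest possible), and -0.363 ± 0.0362 (SE) with age as a covariate, which was added after seeing the data.

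The overage nurses scored above the younger nurses on average. Younger nurses, scored while held out of the training, had a mean of 0.115 ± 0.119 (SD, n = 154), against 0.24 ± 0.0816 (SD, n = 17) in the overage nurses. The ranges overlapped widely, the difference was not tested, and the groups differ in age and in how they were held out. Among the overage nurses the score rose with oriented maturity, with Pearson's r of 0.613 (adjusted permutation p = 0.0361) and Spearman's rho of 0.549 (adjusted p = 0.0486) over 17 ants. Oriented maturity is what the score was trained to predict, and it also set the group. This relation thus describes how the prediction held among these ants and is no separate result on role. Leaving out the 2 ants whose maturity was most distant from the median, r was 0.756, and within colonies 3 and 4 it was 0.411 and 0.765. With brood care rho was -0.562 (adjusted p = 0.0486), r was -0.286 (adjusted p = 0.375) and r without 2 ants was -0.551. Within colonies 3 and 4 that r was -0.109 and -0.845. With age r was 0.139 and rho 0.2, and with queen attending r was -0.366 and rho -0.138 (adjusted p from 0.314 to 0.597). These 4 relations were chosen after seeing the data, and their p-values permuted the 17 ants without regard to colony. Mean brood care was 9.25 in the nurses of colony 3 and 1.67 in those of colony 4, and the mean score 0.208 and 0.268. A difference between colonies therefore enters the pooled values. For single gene models, among the 17 overage nurses, edgeR called 0 of 9655 (0%) for the brood care tally, with 342 at an unadjusted p under 0.05, and limma-voom called 0.

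**Figure D5:**
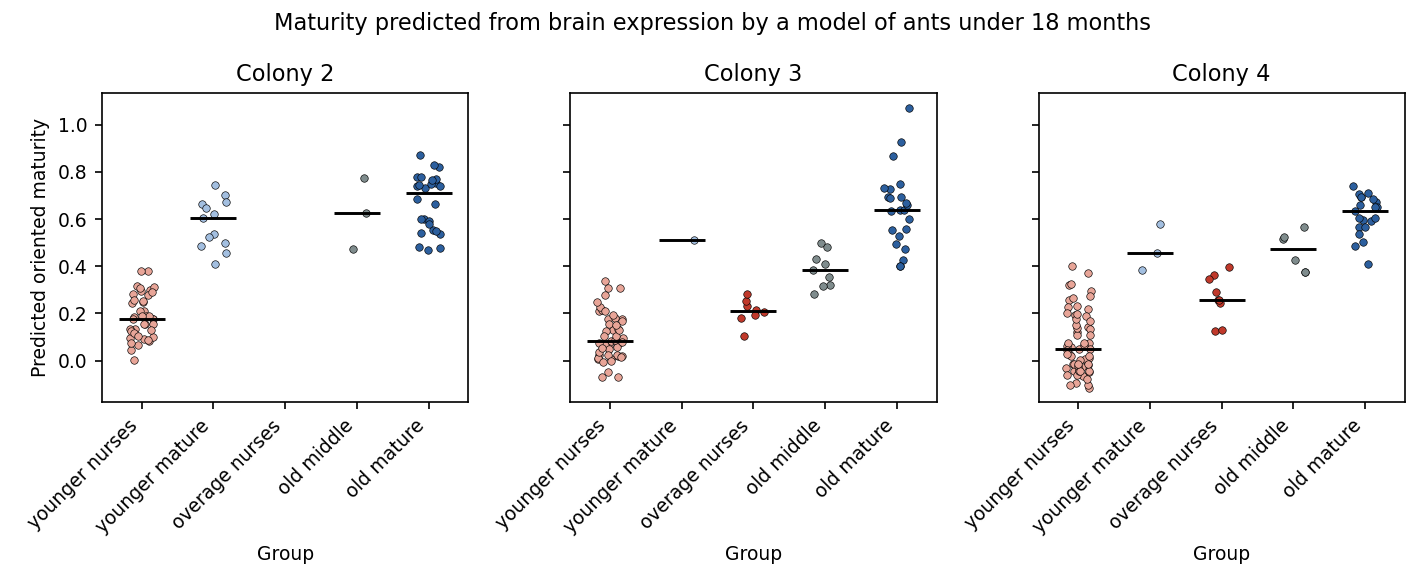
Oriented maturity predicted from brain expression (y axis) by group in colonies 2, 3 and 4; each point is an ant, bars mark medians, and ants under 18 months were scored while held out of the training. The overage nurses of colonies 3 and 4 lie below all old mature ants of their colony, with the old middle ants between by their medians.

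The old middle ants, which the comparison of both ends left out, stood between them by their score and by the medians of the named models, but not in every behaviour. Their score had a mean of 0.452 ± 0.121 (SD, n = 18), and their median brood care tally was 0.5. Their mean guarding tally of 3.89 ± 3.34 (SD) was above that of nurses, at 1.12 ± 2 (SD), and of mature ants, at 3.61 ± 6.1 (SD). Their mean nest grooming tally of 0.167 ± 0.383 (SD) was below 0.706 in nurses and 0.286 in mature ants; neither was tested. The median CPM of evm.model.ctg75.11 was 11.3 in overage nurses, 6.51 in middle ants and 3.91 in mature ants. For evm.model.ctg128.24 these medians were 46.6, 34.7 and 18.8 CPM, for evm.model.ctg47.64 6.75, 11.8 and 14.4 CPM, and for evm.model.ctg91.33 23.2, 32.4 and 42.7 CPM. In each of the 4, from 14 to 17 of the 18 middle ants lay between the medians of the ends. Against overage nurses 3 of 10603 models were called (0.0283%), among them evm.model.ctg47.64 at 0.78 ± 0.136 log2 (SE; edgeR adjusted p = 0.000903). Against old mature ants 52 were called (0.49%), among them evm.model.ctg128.24 and evm.model.ctg91.33. These comparisons share their nurses and mature ants with the comparison of both ends.

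The calls depended on which old mature ants were compared. When only the 18 old mature ants with a ratio below 0.05 formed the mature end, 0 of 10175 models were called by edgeR, with 430 at an unadjusted p under 0.05. The differences of the 4 named models then shrank to 0.02, 0.54, -0.52 and -0.44 log2, with adjusted p from 0.729 to 0.995. With only the 52 mature ants of a ratio of at least 0.05, an alternative chosen after seeing the data, 715 models were called, 448 of them among the 468. Only 5 ants of colony 3 and 1 of colony 4 had the low ratio, and 12 were of colony 2, so the first count rests on 6 mature ants in the colonies that hold the nurses.

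In those 6 ants the levels stood closer to the nurses. Their oriented maturity was also low for mature ants, from 0.761 to 0.887 in colony 3 and 0.774 in colony 4. The medians of all old mature ants there were 0.941 and 0.971. A low ratio and a lower maturity thus cannot be told apart in these 6 ants. In colony 3 the median of evm.model.ctg128.24 was 34.9 CPM in the 5 mature ants of low ratio and 14.3 CPM in the 18 others, against 46 CPM in the nurses. For evm.model.ctg47.64 it was 10.8 CPM and 16.2 CPM against 7.77 CPM, and for evm.model.ctg91.33 33 CPM and 48.6 CPM against 23.2 CPM. The score had a median of 0.427 in the 5 ants and 0.677 in the others, and none of the 5 fell within the range of the nurses. The ant of colony 4 with the low ratio held 46.8 CPM of evm.model.ctg75.11, the highest of the mature ants there, and its score of 0.408 was the lowest of them. In colony 2 the medians at low and high ratio were 5.91 and 2.56 CPM for evm.model.ctg75.11 and 36.6 and 23.6 CPM for evm.model.ctg128.24. They were 37 and 40.9 CPM for evm.model.ctg91.33, and 0.596 and 0.749 for the score. For evm.model.ctg47.64 they were 13 and 11.7 CPM, the other way from colony 3. These values are given without a test, since the groups of low ratio are small, and role and foraging cannot be told apart among the ants of high ratio.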

How the data were processed

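The deposited table holds raw counts of reads for 14664 gene models. STAR and featureCounts were used by the authors, per the submitters' processing notes; the strand setting, annotation, build and tool versions are not given in the sources used here. Tri reagent was used for extraction and a stranded KAPA mRNA kit for the libraries, per the labels' protocols. The labels give no sequencing batch, and the replicate codes only name ants. Ants were grouped by oriented maturity and age, and 10 ants without these labels were left out. The groups, bounds, rules and lists were chosen with earlier results of these data known.

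Models were compared in R 4.3.3 by the quasi-likelihood F-test of edgeR (4.0.16) with robust dispersions, TMM normalization, filterByExpr (minimum count 10) and Benjamini-Hochberg adjustment over all models tested. Colony and age in months were covariates, only the groups compared entered the fit, and the fits of a single colony held age alone. Standard errors come from the coefficient and its F statistic. CPM used TMM factors, with a prior count of 1 on the log2 scale. The models named are the 2 higher and 2 lower with the largest absolute difference among called models whose mean log2 CPM was 2 or more and medians that differed the same way in colonies 3 and 4 (366 of 468). The gene lists and cell type markers could not be matched to identifiers. Labels and scores were compared between groups by permutation with 100000 resamples within colony. The relations of the score among the overage nurses were permuted without regard to colony, with as many resamples. The ridge penalty equalled the number of models, after centring by the colony means of ants under 18 months. The pipeline was tested on simulated data. Figures were drawn with Python 3.11.15 and matplotlib 3.10.9.

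The alternatives were limma-voom (limma 3.58.1), DESeq2 (1.42.0), its size factors in edgeR, no filter for low counts, other ants in the fit, no age term, other bounds of age and maturity, only mature ants of low ratio, body length, log2 library size or 3 residual components as covariates, and each named model without its highest ant. Chosen after seeing the data were only mature ants with a ratio of at least 0.05, leaving out the nurse aged 38 months or the nurse with the highest nest cleaning tally, only nurses with brood care above 0, and age as a covariate of the score. The nurse with the highest nest cleaning tally was likewise left out of the test of that tally.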

Additional observations from a re-analysis of the deposited data

Results flagged for a closer look

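Among 28 sets of values of the 8 or 9 overage nurses of a colony, 6 held an ant set apart from the others by a gap that chance gives in about 1 in 20 sets of normally distributed values. Small whole tallies and skewed levels meet it more easily. In colony 3, evm.model.ctg75.11 stood at 50.25 CPM in the highest ant and 18.69 in the next, and in colony 4 at 78.41 and 42.28 CPM. In colony 3 the highest ratio was 0.00468 with the next at 0.000285, and the highest queen attending tally was 19 with the next at 8. The ant with 19 attending acts is also the one with 50.25 CPM. In colony 4 the highest nest cleaning tally was 33 with the next at 9. The highest nest grooming tally there was 2 with the next at 1, a gap of a single act.

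The interaction test called 200 gene models (1.83%) for a role difference that differed between old and younger ants. With a separate age slope in each age class it called 4 (0.0366%), and limma-voom called 1.21%, so the count depends on how age is fitted.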

How the results depend on the processing

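In 13 of 20 alternatives the count of models called for role in old ants stayed within 1.5 times 468. It moved to 992 without the age term, 968 with log2 library size, 1126 with 3 residual components, 715 with only mature ants of a ratio of at least 0.05, 264 at 20 months or more, 140 at 24 months or more (9 nurses and 53 mature ants), and 0 with only mature ants of a ratio below 0.05. Every named model kept its sign in all 21 alternatives. These models were picked from the same ants for their large differences, so a kept sign is no separate support. The models evm.model.ctg128.24, evm.model.ctg47.64 and evm.model.ctg91.33 were called in 20, all but that with a ratio below 0.05, and evm.model.ctg75.11 in 15. Colony 3 alone gave 7 calls without the filter, 2 with limma-voom and 1 with library size, in place of 0. With library size, age given role gave 308 calls and middle ants against nurses 7. The difference between age classes, called in 1.83% of the models, was called in 5.61% with library size, 1.21% with limma-voom and 0.0366% with an age slope in each class. Without the filter, middle ants gave 18 calls against nurses and 96 against mature ants. The score difference ran from -0.416 to -0.363, except with a ridge penalty 10 times larger, where it was -0.109. That penalty shrinks all predicted values, and R-squared in held-out younger ants was 0.28 with it against 0.607. The cause of the other moves was not tested, except that higher age bounds leave fewer ants. No paired analysis was possible because the groups share no replicate numbers. With 17 overage nurses in 2 colonies, small differences may go undetected.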
